A study of Mus musculus with 49 samples.

Results

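Chemokines are small secreted proteins that attract leukocytes along a concentration gradient by binding G protein-coupled receptors on the arriving cells. The inflammatory members of the family are nearly silent in resting brain and are switched on by microglia, astrocytes and infiltrating cells through interferon and NF-kappaB signalling. The 10 inflammatory chemokine genes described here were chosen by their symbols from a count table of 45252 genes, namely Cxcl9, Cxcl10, Cxcl16, Ccl2, Ccl3, Ccl4, Ccl5, Ccl6, Ccl7 and Ccl12. CXCL9 and CXCL10 bind CXCR3 on activated T and NK cells, and CXCL16 binds CXCR6. CCL3, CCL4 and CCL5 attract monocytes, macrophages and T cells, and CCL3 and CCL5 bind CCR1. CCL2, CCL7 and CCL12 act through CCR2 on monocytes. CCL6 is a rodent chemokine of the CCR1 group.

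RNA was sequenced from the neocortex of 49 mice, 1 library per animal. rNLS8 mice are bigenic: a neurofilament heavy chain promoter (NEFH-tTA) drives doxycycline-repressed human TDP-43 that lacks the nuclear localization signal (tetO-hTDP-43ΔNLS) in neurons. The transgene was switched on by taking all mice off doxycycline at 25.5 weeks, and the brains were taken 3 weeks later, at 28.5 weeks of age. The ctrl-PBS group held 17 monogenic littermates that received PBS and do not express the transgene off doxycycline. The bigenic mice were 10 given PBS (TDP-PBS), 10 immunized against peptides 10 and 12 of the glycine-rich domain (TDP-10+12) and 12 immunized against peptide 15, the phosphorylated C terminus of TDP-43 (TDP-15). Immunized mice had received 40 µg of ovalbumin-conjugated peptide with CpG 5 times before induction and 1 time after it, starting at 8 weeks of age. Aluminium hydroxide was used as a further adjuvant, and whether every injection held it is not clearly stated. The methods do not make clear whether the PBS mice also received these adjuvants, so peptide and adjuvant cannot be told apart in comparisons with TDP-PBS mice. Both sexes were present in every group (25 females and 24 males in all). All mice were on a mixed C57BL/6J and C3H/HeJ background.

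Libraries held between 17775738 and 21033608 counts, with a median of 19955601. Levels are CPM (a gene's counts per 1e6 counts of the library) on library sizes scaled by the trimmed mean of M-values (TMM), and 3 counts, the smallest level taken as detectable, corresponded to 0.139 to 0.165 CPM. Markers of cortical neurons were present in every mouse, with summed levels of 3808 to 6353 CPM. Markers of neighbouring tissue varied from mouse to mouse in every group, the summed choroid plexus markers from 9.32 to 1669 CPM and the olfactory bulb markers from 0.139 to 37.9 CPM. Against ctrl-PBS, 0, 3 and 1 of 3 choroid plexus markers were higher in TDP-PBS, TDP-10+12 and TDP-15 mice (median log2 fold change 1.24, 2.23 and 1.42), and 3, 0 and 0 of 3 olfactory bulb markers were lower (medians -2.68, -0.99 and -1.20). Of all tested genes, 21.9%, 20.8% and 23.6% were called higher and 21.6%, 20% and 23.2% lower in the same order of groups. The part of these tissue markers in the chemokine differences was not tested. In whole tissue, fewer cells of a type and less RNA per cell cannot be told apart.

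Most of the genes lie in tight groups on chromosomes 5 and 11, and Cxcl16 lies apart from them on chromosome 11 (positions from the RefSeq annotation of GRCm38.p6). Cxcl9 and Cxcl10 are neighbours within 27.6 kb of chromosome 5. On chromosome 11, Ccl2, Ccl7 and Ccl12 lie within 67.8 kb, and Ccl5, Ccl6, Ccl3 and Ccl4 within 138.9 kb. Cxcl10 spans chr5:92346638-92348889 on the minus strand and lies inside the span of Art3. Ccl5 spans chr11:83525778-83530518 on the minus strand. RefSeq promoter sequence was at hand for 5 of the 10 genes (Cxcl9, Cxcl10, Ccl3, Ccl6 and Ccl12). The 250 bases before the start of 3 of them are shown, because Cxcl10 and Ccl12 varied together among the bigenic mice while Ccl6 did not follow them. Capitals mark matches to an interferon response element pattern (GAAA, any 2 bases, GAAA) and to the NF-kappaB consensus, both searched on both strands.
Cxcl10, chr5:92348890-92349139, minus strand: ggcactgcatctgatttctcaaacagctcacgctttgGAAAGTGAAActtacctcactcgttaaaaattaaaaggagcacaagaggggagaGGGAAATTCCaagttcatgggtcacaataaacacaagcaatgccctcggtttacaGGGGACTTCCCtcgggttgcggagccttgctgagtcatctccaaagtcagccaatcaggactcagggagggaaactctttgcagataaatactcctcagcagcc
Ccl12, chr11:82101595-82101844, plus strand: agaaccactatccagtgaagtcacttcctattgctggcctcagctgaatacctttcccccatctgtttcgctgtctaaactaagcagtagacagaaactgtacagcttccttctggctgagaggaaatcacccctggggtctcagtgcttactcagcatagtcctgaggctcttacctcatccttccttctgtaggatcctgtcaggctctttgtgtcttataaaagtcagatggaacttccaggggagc
Ccl6, chr11:83593088-83593337, minus strand: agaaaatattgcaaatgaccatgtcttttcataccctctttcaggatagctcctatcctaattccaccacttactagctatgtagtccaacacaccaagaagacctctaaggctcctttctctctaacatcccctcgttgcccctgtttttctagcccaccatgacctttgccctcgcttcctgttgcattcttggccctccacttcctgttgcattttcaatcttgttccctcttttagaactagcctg
The Cxcl10 promoter held 1 match to the interferon pattern, from base -213 to base -204 before the start. It also held NF-kappaB matches from -159 to -150 and from -104 to -95, the latter overlapped by a further match from -103 to -94. No match was present in these windows of Cxcl9, Ccl3, Ccl6 or Ccl12. Of 32851 promoters in the same table and of the same length, 2.98% held the interferon pattern and 7.25% the NF-kappaB consensus.

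Against the ctrl-PBS mice, the chemokine genes were higher in all 3 rNLS8 groups. Of the 10, 9 passed the filter on low counts, and these 9 were higher in TDP-PBS, in TDP-10+12 and in TDP-15 mice (edgeR quasi-likelihood test, adjusted p under 0.05). The share of all 18220 tested genes called higher was 21.9% in TDP-PBS, 20.8% in TDP-10+12 and 23.6% in TDP-15 mice. The median log2 fold change of the 9 was 3.09, 3.05 and 3.46 in the same order, while the median over all tested genes was -0.000388, 0.00306 and -0.00150. Only Cxcl16 and Ccl6 had enough counts in the ctrl-PBS mice to pass the filter there. The other 7 passed through the bigenic mice, so these counts and medians are a description. The same holds for the adjusted p and the ranks of these 7 genes against ctrl-PBS given below. Because the 3 comparisons use the same ctrl-PBS mice, they are not independent of each other. Cxcl10, Ccl5, Ccl2 and Ccl12 were higher in all 32 bigenic mice than in any of the 17 ctrl-PBS mice, which held for 1.16% of all tested genes.

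**Figure D1:**
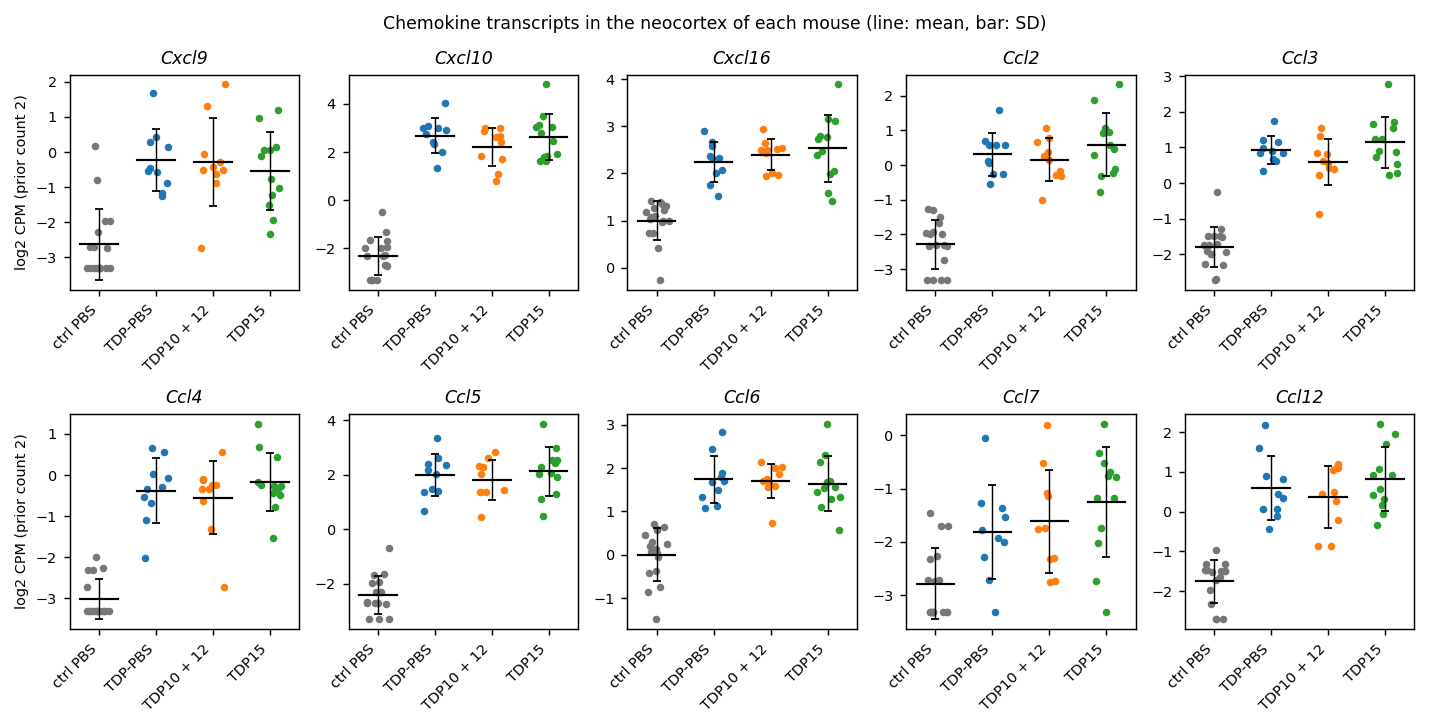
Level of each chemokine gene in every mouse, as log2 CPM with a prior count of 2, by group. Points are mice, the line is the group mean and the bar its SD; in the Cxcl10, Ccl5, Ccl2 and Ccl12 panels all 32 bigenic mice lie above the 17 ctrl-PBS mice.

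The CXCR3 ligands Cxcl9 and Cxcl10 lie side by side but differed in how evenly they were raised. Cxcl10 was nearly silent in ctrl-PBS mice, with 0 CPM at the lowest, a median of 0.101 and 0.621 at the highest. It reached 2.41 to 16.1 CPM in TDP-PBS mice (median 6.99), 1.66 to 7.92 in TDP-10+12 mice (median 5.70) and 2.98 to 28.0 in TDP-15 mice (median 6.14). No bigenic mouse overlapped the controls. Its log2 fold change was 5.66 ± 0.42 (SE) in TDP-PBS, 5.19 ± 0.42 in TDP-10+12 and 5.79 ± 0.41 in TDP-15 mice (edgeR adjusted p = 3.34e-16, 1.44e-14 and 3.90e-17). In each of these comparisons it was number 1 of all tested genes by log2 fold change. The ctrl-PBS median lay below the 3-count floor, and the whole group held only 44 Cxcl10 counts, so this fold is uncertain. For TDP-PBS the ratio of summed counts was 53.4, with a 95% interval of 39.6 to 73.9 that covers counting error only. Cxcl9 was at 0 counts in 9 ctrl-PBS mice, with a highest control value of 1.03 CPM. Its levels were 0.321 to 3.08 CPM in TDP-PBS (median 0.610), 0.0493 to 3.71 in TDP-10+12 (median 0.625) and 0.0994 to 2.18 in TDP-15 mice (median 0.658). The groups overlapped widely, and only 7 of 32 bigenic mice lay above every control. The log2 fold change of Cxcl9 was 2.88 ± 0.58, 3.05 ± 0.57 and 2.64 ± 0.57 in the same order (edgeR adjusted p = 5.25e-05, 1.81e-05 and 0.00012). Cxcl9 was also among the genes that varied most between mice of 1 group, its dispersion lying at percentile 99.4 of all tested genes.

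Cxcl16, a transmembrane chemokine that can be shed, had the highest CPM of the 10 genes in ctrl-PBS mice. It was measured at 0.736 to 2.57 CPM there (median 2.02), and at 2.76 to 7.36 in TDP-PBS (median 4.93), 3.76 to 7.57 in TDP-10+12 (median 5.55) and 2.56 to 14.7 in TDP-15 mice (median 6.01). A single TDP-15 mouse fell within the control range, and 31 of 32 bigenic mice lay above it. The rise was smaller than for the other genes tested, with log2 fold changes of 1.30 ± 0.19, 1.43 ± 0.19 and 1.69 ± 0.18 (edgeR adjusted p = 1.22e-07, 1.28e-08 and 2.62e-11). Cxcl16 overlaps Zmynd15, which was itself higher in TDP-PBS mice (log2 fold change 0.64 ± 0.22, edgeR adjusted p = 0.0141) and gave 0.48 ± 0.22 and 0.44 ± 0.21 in the immunized groups (adjusted p = 0.0708 and 0.0798). How reads from overlapping genes were counted is not given in the sources used here.

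Ccl3, Ccl4 and Ccl5, attractants of macrophages and T cells, are encoded within the same stretch of chromosome 11. Ccl5 had a median of 0.0538 CPM and a highest value of 0.513 in ctrl-PBS mice, against 1.5 to 10.1 in TDP-PBS (median 4.17), 1.25 to 6.97 in TDP-10+12 (median 3.28) and 1.28 to 14.6 in TDP-15 mice (median 4.39). Every bigenic mouse was above every control. Its log2 fold changes were 5.25 ± 0.39, 5.04 ± 0.40 and 5.47 ± 0.38 (edgeR adjusted p = 6.06e-16, 4.12e-15 and 3.26e-17), ranking it 3, 3 and 2 among all tested genes. The ctrl-PBS mice held 36 Ccl5 counts in all, and the ratio of summed counts for TDP-PBS was 40.4 (95% interval 28.9 to 58.0, counting error only). Ccl4 was at 0 counts in 12 of 17 ctrl-PBS mice and never above 0.153 CPM there. It reached 0.148 to 1.47 CPM in TDP-PBS (median 0.710), 0.0502 to 1.37 in TDP-10+12 (median 0.719) and 0.249 to 2.28 in TDP-15 mice (median 0.734). In all, 30 of the 32 bigenic mice were above every control. Ccl4 rose by 4.40 ± 0.46, 4.23 ± 0.47 and 4.62 ± 0.44 on the log2 scale (edgeR adjusted p = 3.00e-11, 1.59e-10 and 1.37e-12), number 4 of all tested genes in each comparison. The whole ctrl-PBS group held only 10 Ccl4 counts, so the size of this fold is uncertain, and the ratio of summed counts for TDP-PBS was 25.3 with a 95% interval of 13.4 to 53.8 that covers counting error only. In ctrl-PBS mice Ccl3 ran from 0.0511 to 0.734 CPM with a median of 0.197. It was 1.15 to 3.21 in TDP-PBS (median 1.75), 0.452 to 2.82 in TDP-10+12 (median 1.40) and 1.07 to 6.73 in TDP-15 mice (median 2.0). A single TDP-10+12 mouse overlapped the controls. Its log2 fold changes were 3.09 ± 0.28, 2.82 ± 0.29 and 3.46 ± 0.27 (edgeR adjusted p = 4.82e-13, 1.52e-11 and 1.87e-15). RefSeq places a predicted Ccl4 transcript across Ccl3, so reads between these neighbours could have been shared.

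Ccl2, Ccl7 and Ccl12 encode the CCR2 ligands, the main monocyte attractants of the mouse. Ccl2 lay at or below 0.312 CPM in every ctrl-PBS mouse (median 0.103), and at 0.580 to 2.90 in TDP-PBS (median 1.19), 0.397 to 2.0 in TDP-10+12 (median 1.05) and 0.480 to 4.92 in TDP-15 mice (median 1.34). All 32 bigenic mice exceeded every control. Log2 fold changes of Ccl2 were 3.24 ± 0.37, 3.05 ± 0.38 and 3.69 ± 0.35 (edgeR adjusted p = 3.92e-10, 3.01e-09 and 1.42e-12). Ccl12 ran from 0.0524 to 0.414 CPM in ctrl-PBS mice (median 0.255). It was 0.642 to 4.44 in TDP-PBS (median 1.21), 0.444 to 2.18 in TDP-10+12 (median 1.28) and 0.696 to 4.54 in TDP-15 mice (median 1.58), again without overlap. Its log2 fold changes were 2.91 ± 0.33, 2.62 ± 0.34 and 3.14 ± 0.32 (edgeR adjusted p = 3.01e-10, 8.42e-09 and 7.48e-12). Ccl7 was too low for the filter, with 0 counts in 9 ctrl-PBS mice, 1 TDP-PBS mouse and 1 TDP-15 mouse. Its highest values were 0.262 CPM in ctrl-PBS, 0.869 in TDP-PBS, 1.04 in TDP-10+12 and 1.06 in TDP-15 mice, and 15 of 32 bigenic mice were above every control. Summed over mice and divided by library size, Ccl7 counts were 3.96 times the ctrl-PBS level in TDP-PBS (95% interval 2.31 to 7.05), 5.03 times in TDP-10+12 (3.00 to 8.79) and 6.78 times in TDP-15 mice (4.17 to 11.6), intervals that cover counting error only. With no filter on low counts, edgeR gave Ccl7 log2 fold changes of 1.87 ± 0.59, 2.22 ± 0.57 and 2.64 ± 0.54 (adjusted p = 0.0153, 0.00261 and 9.68e-05), and all 10 genes were then higher in each group. The share of all genes called higher in that fit is not given here, so this count is a description.

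Ccl6 had a sizeable level without the transgene, at 0.257 to 1.55 CPM in ctrl-PBS mice (median 0.990). It was 2.03 to 7.01 in TDP-PBS (median 3.12), 1.56 to 4.28 in TDP-10+12 (median 3.19) and 1.39 to 8.03 in TDP-15 mice (median 2.83). A single TDP-15 mouse was within the control range. The log2 fold changes were close to each other at 1.82 ± 0.22, 1.73 ± 0.22 and 1.76 ± 0.21 (edgeR adjusted p = 1.57e-09, 7.93e-09 and 1.16e-09). Ccl6 overlaps the uncharacterized E230016K23Rik, and Ccl5 overlaps Gm32650, both of which were below the filter. Art3, around Cxcl10, gave log2 fold changes of 0.09, -0.15 and -0.13 with adjusted p from 0.606 to 0.753.

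**Figure D2:**
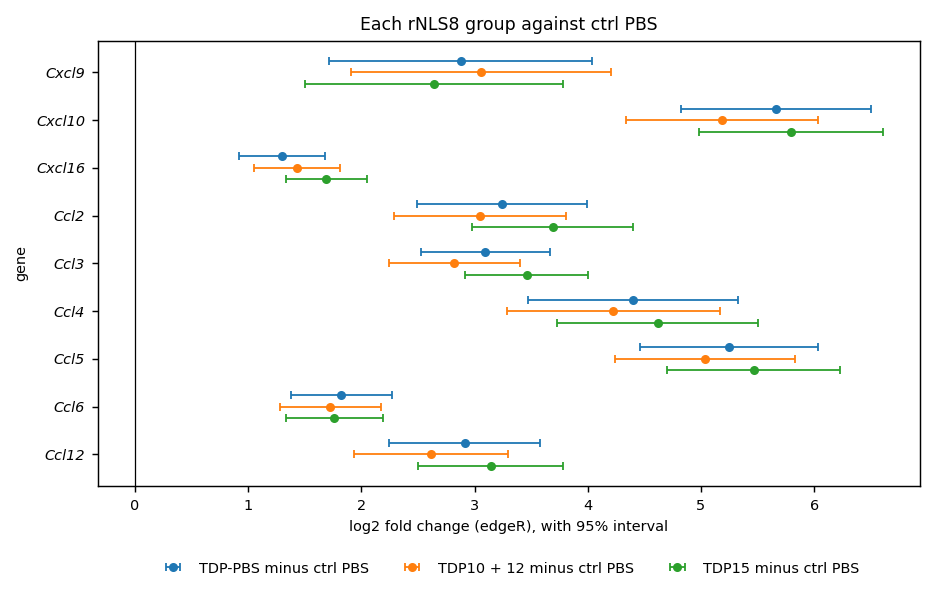
Log2 fold change of the 9 tested chemokine genes in each rNLS8 group against ctrl-PBS, with 95% intervals from the edgeR fit. Cxcl10 and Ccl5 lie above 5 in all groups, and Cxcl16 and Ccl6 lie between 1.30 and 1.82.

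Divided by exon length, the order of the levels also changed with the transgene. In ctrl-PBS mice Cxcl16 was highest at 0.649 ± 0.158 CPM per kb (mean ± SD, n = 17), followed by Ccl6 at 0.545 ± 0.212 and Ccl12 at 0.400 ± 0.188, neighbours that overlapped within 1 SD. In bigenic mice Ccl5 was highest at 4.65 ± 2.84 CPM per kb (n = 32), followed by Ccl12 at 3.12 ± 1.99, Cxcl10 at 2.98 ± 2.18 and Ccl3 at 2.56 ± 1.43. Each of these lay within 1 SD of the next. Ccl6 and Cxcl16 came next at 1.86 ± 0.783 and 1.84 ± 0.763, then Ccl2 at 1.21 ± 0.821 and Ccl4 at 1.19 ± 0.675. Ccl7 at 0.404 ± 0.359 and Cxcl9 at 0.304 ± 0.282 CPM per kb were the lowest. Summed over the 10 genes, the CPM lay between 2.75 and 5.49 in ctrl-PBS mice, 15.7 and 43.8 in TDP-PBS, 10.54 and 32.5 in TDP-10+12, and 12.9 and 76.95 in TDP-15 mice.

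Whether immunization changed the chemokine genes was asked by comparing the 3 rNLS8 groups with each other. None of the 9 tested genes was called in any of these comparisons, where edgeR called 0% of all 18220 tested genes, and DESeq2 also called none of the members. Without adjustment, 1 of the 9 had p under 0.05, against 953 of all tested genes in TDP-10+12 vs TDP-PBS (5.23%), 552 in TDP-15 vs TDP-PBS (3.03%) and 1244 in TDP-10+12 vs TDP-15 (6.83%). A p that misses the threshold does not show that the groups were alike, so the intervals are given. In TDP-10+12 vs TDP-PBS mice, the log2 fold change was -0.48 for Cxcl10 (95% interval -1.14 to 0.19), -0.21 for Ccl5 (-0.84 to 0.42), -0.30 for Ccl12 (-0.94 to 0.35) and -0.10 for Ccl6 (-0.57 to 0.38). In this comparison 2 of the 9 genes had a positive log2 fold change, and the median of the 9 was -0.19. Of all tested genes 48.7% were positive, with a median of -0.0029. In TDP-15 vs TDP-PBS mice, Cxcl16 gave 0.39 (-0.0025 to 0.79), Ccl2 0.45 (-0.19 to 1.09), Ccl3 0.37 (-0.15 to 0.88) and Cxcl10 0.13 (-0.50 to 0.76). Here 7 of the 9 were positive, with a median of 0.22, against 50.1% of all tested genes with a median of 0.000209. The chemokine genes varied together among mice, so their signs are not independent. Cxcl9 had the widest intervals, from -0.89 to 1.24 in the first comparison and from -1.28 to 0.80 in the second.

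Between the immunized groups, 1 of the 9 genes was positive in TDP-10+12 vs TDP-15 and the median was -0.43. Of all tested genes 49% were positive here, with a median of -0.0024. Ccl3 was -0.64 (95% interval -1.16 to -0.12, unadjusted p = 0.0163, edgeR adjusted p = 0.614). Ccl2 followed at -0.64 (-1.29 to 0.01), Cxcl10 at -0.61 (-1.25 to 0.03) and Ccl12 at -0.53 (-1.14 to 0.09). Single mice led several genes. TDP-15 mouse 328, a female, had the highest Ccl3, Ccl6 and Ccl12 of all mice (6.73, 8.03 and 4.54 CPM), and without it the Ccl3 difference was -0.38. TDP-15 mouse 126, a male, had the highest Cxcl10, Cxcl16, Ccl2, Ccl4, Ccl5 and Ccl7 (28.0, 14.7, 4.92, 2.28, 14.6 and 1.06 CPM). Without it the Cxcl10 difference was -0.22 in place of -0.61, and for TDP-15 vs TDP-PBS it turned from 0.13 to -0.26. Against ctrl-PBS, the Cxcl10 log2 fold change of TDP-15 mice without mouse 126 was 5.40.

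**Figure D3:**
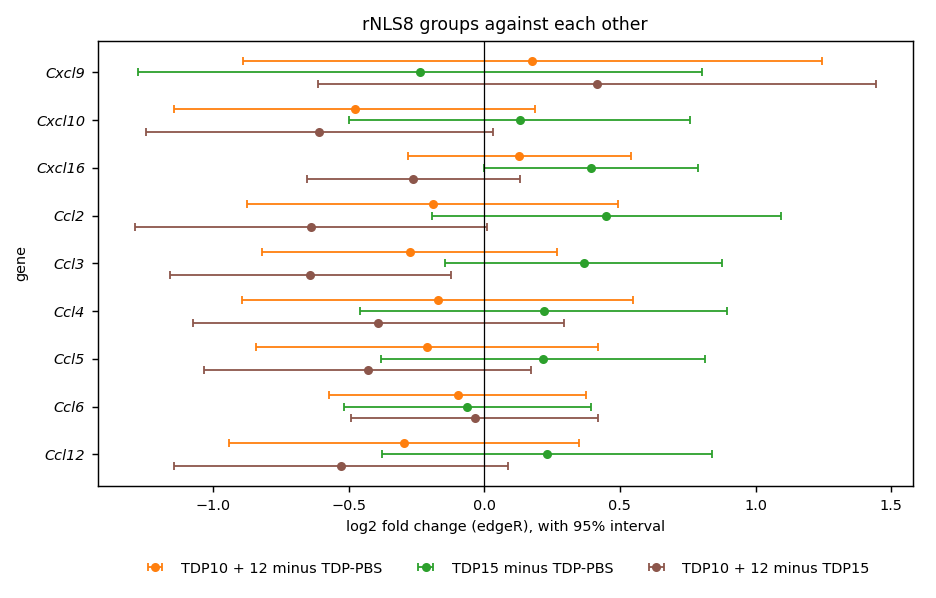
Log2 fold change of the 9 tested chemokine genes between the rNLS8 groups, with 95% intervals from the edgeR fit. All intervals include 0 except that of Ccl3 in TDP-10+12 vs TDP-15 (-1.16 to -0.12), which does not pass adjustment over all tested genes.

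Sex was asked about because each group held females and males. Among bigenic mice, averaged over the 3 groups, no chemokine gene passed the threshold between 15 females and 17 males (edgeR, where 0.0823% of all tested genes were called). Ccl6 was 0.45 ± 0.18 higher in females on the log2 scale (unadjusted p = 0.0161) and Ccl3 0.42 ± 0.20 higher (unadjusted p = 0.0436), both with an adjusted p of 1.0. Unadjusted p under 0.05 was reached by 3.67% of all tested genes. Ccl6 ran from 2.04 to 8.03 CPM in bigenic females and from 1.39 to 3.95 in bigenic males, and the ranges overlapped.

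Bigenic mice with more of 1 chemokine transcript mostly had more of the others. Over the 32 bigenic mice, 44 of 45 pairs had a positive Pearson correlation of log2 CPM, with a median r of 0.452, and 26 pairs passed the threshold (permutation test with 100000 resamples, adjusted over 45 pairs). Over all pairs of the 18220 tested genes in the same mice, 49.8% were positive and the median r was -0.001. The lowest r among the called chemokine pairs was 0.405, a value reached by 3.58% of all pairs. Spearman correlation called 21 pairs, and with group means subtracted 25 were called. The strongest pair was Cxcl10 with Ccl5, genes on different chromosomes, with r = 0.828 and rho = 0.774 (adjusted permutation p = 0.00015 and 0.0003). The smallest p the permutations could give was 1e-05. Its r was 0.823 within TDP-PBS, 0.790 within TDP-10+12 and 0.860 within TDP-15 mice, and 0.744 without the 2 mice farthest from the median of Cxcl10. Ccl7 and Ccl12 followed at r = 0.701 and rho = 0.737 (adjusted permutation p = 0.000225 and 0.0003). Ccl3 and Ccl6, the pair that mouse 328 led, had r = 0.70 and rho = 0.529 (adjusted permutation p = 0.00015 and 0.00514), with r between 0.603 and 0.740 whichever mouse was left out.

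**Figure D4:**
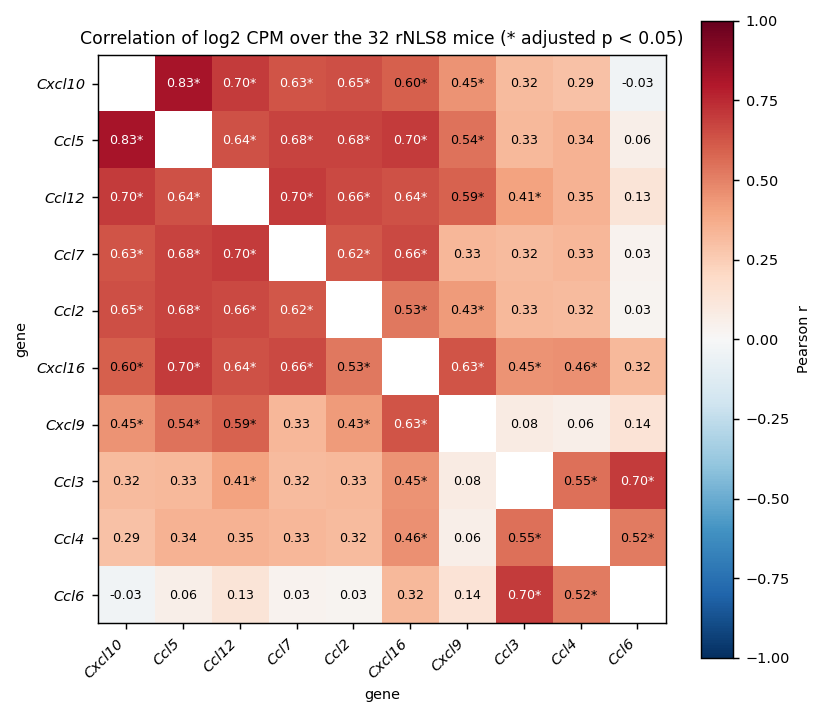
Pearson r of log2 CPM for each pair of chemokine genes over the 32 bigenic mice, with an asterisk where the adjusted permutation p is under 0.05. Values run from -0.032 for Cxcl10 with Ccl6 to 0.828 for Cxcl10 with Ccl5.

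Read from this matrix after its values were seen, the genes fell into 2 sets, which are given as a description. Cxcl10, Ccl5, Ccl12, Ccl7, Ccl2 and Cxcl16 formed 15 pairs, all called, with r from 0.529 to 0.828, and Spearman correlation also called all 15. Ccl3, Ccl4 and Ccl6 formed 3 pairs, all called with r from 0.521 to 0.70, of which Spearman correlation called 1. Of the 18 pairs between these sets 3 were called, and 0 by Spearman correlation. The sets were read over the 32 bigenic mice together and did not hold for every pair within single groups. For example, Cxcl16 with Ccl2 had r = -0.247 within TDP-PBS, and Cxcl10 with Ccl4 had r = 0.645 within TDP-15 mice. Cxcl9 was called with 5 of the 6 genes of the first set and with none of the 3 of the second, where r was 0.062 to 0.136. Neighbours on the chromosome were not always neighbours in this matrix. Ccl5 and Ccl6 lie within the same stretch and had r = 0.062 (rho = -0.057, adjusted permutation p = 0.788 and 0.792), and Cxcl9 with Cxcl10 had r = 0.451 (rho = 0.456, adjusted permutation p = 0.0184 and 0.021). After leaving out the 2 mice farthest from the median of the first gene, 23 of the 26 called pairs kept an unadjusted permutation p under 0.05. The relation rested on those mice for Ccl3 with Ccl4 (r = 0.285 without them), Cxcl16 with Ccl2 (0.290) and Ccl3 with Ccl12 (0.083). Leaving out 1 mouse could also lift other called pairs over the threshold. The highest adjusted permutation p was then 0.113 for Cxcl16 with Ccl4 and 0.0678 for Cxcl9 with Ccl2. For Cxcl16 with Ccl3 it was 0.0532, and for Cxcl9 with Cxcl10 0.0504.

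Within single groups the correlations were strongest in TDP-15 mice, where all 45 pairs were positive with a median r of 0.672 (n = 12). The median was 0.203 in TDP-PBS (31 positive, n = 10) and 0.328 in TDP-10+12 mice (41 positive, n = 10). No test of the difference between groups was made. In TDP-10+12 the median rested on mouse 242, the lowest of its group for Cxcl10, Cxcl16, Ccl3, Ccl4, Ccl5 and Ccl6, and fell to -0.072 without it, with 22 pairs positive. Without mouse 126 the median in TDP-15 was 0.627 and without mouse 328 it was 0.642. In TDP-PBS mice Ccl2 and Ccl6 ran in opposite directions (r = -0.731, unadjusted permutation p = 0.0156), while over all 32 bigenic mice their r was 0.027.

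**Figure D5:**
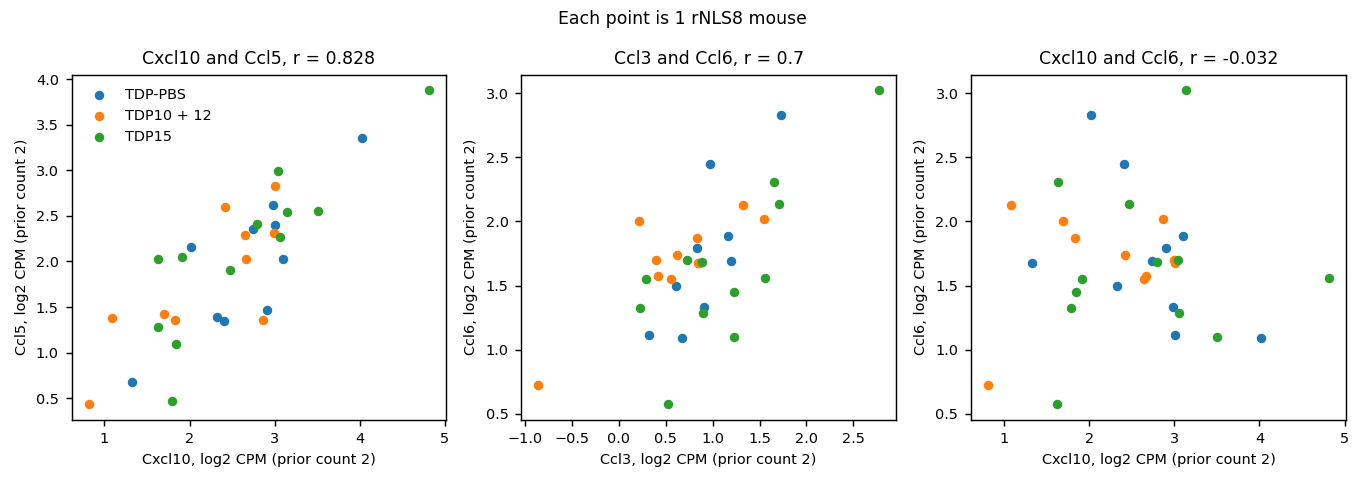
Log2 CPM of 3 gene pairs in each of the 32 bigenic mice, coloured by group: Cxcl10 with Ccl5 (r = 0.828), Ccl3 with Ccl6 (r = 0.70) and Cxcl10 with Ccl6 (r = -0.032). The first panel shows mice of every group along the same diagonal, and the third shows no slope.

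The chemokine genes were next set beside the levels of marker lists in the same 32 mice, in 80 relations of which 24 were called (permutation test, adjusted over 80). Of the 10 chemokine genes, 7 were called with 10 interferon-stimulated genes, led by Ccl5 (r = 0.874, rho = 0.788, adjusted permutation p = 0.0001 and 0.00016) and Cxcl10 (r = 0.859, rho = 0.813, adjusted permutation p = 0.0001 and 0.00016). Ccl6 stood at the other end with r = 0.119 (rho = 0.057, adjusted permutation p = 0.643 and 0.842). With 7 NF-kappaB-induced genes 7 were called, with r from 0.576 for Ccl7 to 0.763 for Ccl5, while Ccl6 had r = 0.181 (adjusted permutation p = 0.451). With 10 microglia markers 7 were called, from r = 0.761 for Cxcl16 down to 0.47 for Ccl4. Without the 2 mice farthest from the median, the r of Ccl4 was 0.089. By group, the 7 had r from -0.113 to 0.583 within TDP-PBS, 0.469 to 0.894 within TDP-10+12 and 0.555 to 0.942 within TDP-15 mice. The 7 called with the NF-kappaB list had 0.088 to 0.658, 0.541 to 0.878 and 0.802 to 0.944 in the same order. Those called with the interferon list had 0.394 to 0.865, 0.441 to 0.898 and 0.737 to 0.916. These differences between groups were not tested. The lowest called r was 0.533 for the interferon list, and 1.85% of the other tested genes reached it. For the NF-kappaB list 2.36% of the other tested genes reached the lowest called r, and for the microglia list 4.47% did. Astrocyte markers ran against Ccl2 (r = -0.582, rho = -0.623, adjusted permutation p = 0.00262 and 0.00173), Ccl7 (r = -0.535) and Ccl5 (r = -0.499). Scored as a mean of standardized genes in place of summed CPM, only Ccl2 kept that relation (r = -0.418, adjusted permutation p = 0.0441). No gene was called with monocyte, T and NK cell, border-associated macrophage or endothelial markers by summed CPM. By standardized means 34 relations were called. With monocyte markers they were Cxcl9, Cxcl10, Cxcl16, Ccl2, Ccl3, Ccl5 and Ccl12 (r from 0.455 to 0.632). With T and NK cell markers they were Cxcl9, Cxcl10, Cxcl16 and Ccl5 (r from 0.461 to 0.572). The outcome for these lists thus depended on the score used. Among 12 T and NK cell markers only Cd4 passed the filter on low counts, and among 4 monocyte markers 2 did. Both scores of these lists therefore include genes with few counts.

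These lists were also compared between ctrl-PBS and rNLS8 mice. Of all tested genes, 21.9%, 20.8% and 23.6% were called higher and 21.6%, 20% and 23.2% lower in TDP-PBS, TDP-10+12 and TDP-15 mice. All 10 interferon-stimulated genes were higher in each rNLS8 group, with a median log2 fold change of 3.05 in TDP-PBS, 2.56 in TDP-10+12 and 3.26 in TDP-15 mice. Of 10 microglia markers 6, 6 and 7 were higher and 0, 1 and 1 lower, and their summed CPM was 282 to 348 in ctrl-PBS, 354 to 489 in TDP-PBS, 288 to 453 in TDP-10+12 and 293 to 607 in TDP-15 mice. Of 4 monocyte markers 2 passed the filter, and Plac8 was higher in each rNLS8 group (log2 fold change 2.15, 1.69 and 2.33), while the summed CPM of the list was 0.770 to 8.44 in ctrl-PBS and 0.903 to 10.3 in rNLS8 mice. Of 12 T and NK cell markers only Cd4 passed, and it was lower (-1.19, -1.34 and -1.60), while Cd3e, a defining T cell gene, never exceeded 8 counts. The summed CPM of that list was 2.16 to 35.4 in ctrl-PBS and 4.34 to 15.0 in rNLS8 mice. Of 5 astrocyte markers 0 were higher and 1, 1 and 2 lower, with summed CPM of 527 to 685 in ctrl-PBS and 477 to 663 in rNLS8 mice. Of 5 border-associated macrophage markers 4, 4 and 2 were higher and 0 lower (median log2 fold change 0.68, 0.50 and 0.42), with summed CPM of 3.78 to 7.99 in ctrl-PBS and 5.37 to 14.3 in rNLS8 mice. Of 7 NF-kappaB-induced genes 6, 6 and 5 were higher and 0 lower (medians 0.41, 0.34 and 0.33). Of 5 endothelial markers 0 were higher and 0, 0 and 2 lower. The part of these lists in the chemokine differences was not tested.

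By a fixed rule, the 3 genes outside the list with the highest Pearson r to each chemokine gene over the 32 bigenic mice, group means subtracted, were taken from 15533 expressed genes. For Cxcl10 they were Gbp6 (0.905), Zbp1 (0.878) and Oas2 (0.867), and for Ccl5 they were Rsad2 (0.918), Gbp6 (0.911) and Gbp10 (0.908). Gbp genes encode interferon-induced GTPases, and Rsad2 encodes viperin, an antiviral enzyme. Cxcl9 went with Iigp1 (0.772), Gbp10 (0.733) and Gbp9 (0.727), Ccl12 with Nlrc5 (0.782), Zbp1 (0.781) and Xaf1 (0.777), and Ccl2 with Gbp3 (0.767), Znfx1 (0.759) and Icam1 (0.758). Cxcl16 went with Pld4 (0.860), Cd52 (0.858) and St14 (0.825). Ccl3 went with Myd88 (0.740), an adaptor of Toll-like receptors, Clec7a (0.719), a beta-glucan receptor of activated microglia, and Serinc3 (0.708). Ccl6 went with Ccl9 (0.660), its neighbour in the family, Il11ra2 (0.643) and Tyrobp (0.643). Ccl4 went with Trim14 (0.679), Arhgap17 (0.656) and Arhgap30 (0.650). Ccl7, with at most 21 counts, went with Fosl1 (0.762), Adamtsl5 (0.762) and D17H6S56E-5 (0.756).

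The other chemokine ligands and receptors were described from lists. Of 28 other chemokine ligands 11 passed the filter, of which 2, 2 and 3 were higher and 5, 3 and 4 lower in TDP-PBS, TDP-10+12 and TDP-15 mice. Higher calls made up 21.9%, 20.8% and 23.6% of all tested genes in these comparisons, and lower calls 21.6%, 20% and 23.2%. Ccl9, a ligand close to Ccl6, was 1.82 ± 0.23 higher in TDP-PBS on the log2 scale (edgeR adjusted p = 6.33e-09). Ccl17, a ligand of CCR4, was 1.14 ± 0.23 higher (edgeR adjusted p = 6.75e-05). Cxcl13, a B cell attractant, was below the filter, with 0 counts in 12 of 17 ctrl-PBS mice and means of 0.0301 CPM in ctrl-PBS, 0.318 in TDP-PBS, 0.257 in TDP-10+12 and 0.453 in TDP-15 mice. Cx3cl1, the neuronal ligand of the microglial receptor CX3CR1, was by far the most abundant at 738 to 1076 CPM in ctrl-PBS and 531 to 778 in rNLS8 mice, and its log2 fold change was -0.48, -0.49 and -0.59 (edgeR adjusted p = 1.76e-09, 1.02e-09 and 8.35e-13).

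Among 24 chemokine receptors 7 passed the filter, with 3, 3 and 2 higher and 1, 2 and 2 lower in TDP-PBS, TDP-10+12 and TDP-15 mice. The shares of all tested genes were 21.9%, 20.8% and 23.6% for higher and 21.6%, 20% and 23.2% for lower calls. Cx3cr1, the microglial receptor of CX3CL1, was higher by 0.36 ± 0.07, 0.27 ± 0.07 and 0.32 ± 0.06 on the log2 scale (edgeR adjusted p = 1.40e-05, 0.000936 and 2.57e-05). Ccr1, Ccr2, Cxcr3 and Cxcr6 were below the filter. Ccr2 never exceeded 16 counts, with means of 0.177 CPM in ctrl-PBS and 0.199 in bigenic mice. Cxcr3 never exceeded 13 counts (means 0.0793 and 0.140 CPM) and Cxcr6 never 4. Ccr1 had means of 0.153 CPM in ctrl-PBS and 0.331, 0.360 and 0.265 in TDP-PBS, TDP-10+12 and TDP-15 mice, with overlapping ranges. These 4 receptors were not tested and are given as levels.

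Of 6 cytokines known to induce chemokines, Tnf and Il1a passed the filter and were higher in all rNLS8 groups. Tnf was at 0 counts in 13 of 17 ctrl-PBS mice and passed the filter through the bigenic mice, so its call is a description. It ran from 0 to 0.612 CPM in ctrl-PBS and from 0 to 2.79 in bigenic mice, with log2 fold changes of 2.94 ± 0.61, 2.93 ± 0.61 and 3.61 ± 0.56 (edgeR adjusted p = 7.65e-05, 8.29e-05 and 4.45e-07). Il1a gave 1.09 ± 0.23, 0.84 ± 0.23 and 1.32 ± 0.22 (edgeR adjusted p = 0.000102, 0.00271 and 1.23e-06). Il1b, Il6 and Ifng stayed at or below 16, 4 and 2 counts in every mouse. Ifnb1 had 0 counts in all 49 mice, which allows a level of up to 0.165 CPM in the mouse with the smallest scaled library.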

How the data were processed

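RNA of 49 mouse neocortices (about 30 mg of tissue, 200 ng of total RNA) was sequenced as 100 bp paired-end reads. The authors deposited raw read counts per gene and mouse for 45252 genes. The submitters' processing notes name HISAT, HISAT2, Bowtie, Bowtie2, RSEM and the build mm10, without versions. The annotation and the handling of overlapping genes or strand are not given in the sources used here. The labels gave each mouse's group, sex and number. Pairs of mice within groups were compared, and none were copies of each other (292 pairs, smallest chi-squared per degree of freedom 7.24 over genes with at least 20 counts).

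The counts were filtered with filterByExpr by group (at least 10 counts, 15 in total), scaled by TMM and fitted in 1 model of all 49 mice without covariates (edgeR 4.0.16 in R 4.3.3, glmQLFit and glmQLFTest, two-sided, Benjamini-Hochberg over 18220 genes, threshold 0.05). CPM uses TMM-scaled library sizes, and correlations use log2 CPM with a prior count of 2, two-sided permutation tests with 100000 resamples and Benjamini-Hochberg adjustment within each family. List scores are summed CPM without shared genes. The 3 most similar genes were taken among those with a mean of at least 1 CPM. Named genes were all 10 members, their main receptors and 6 inducing cytokines whatever their values, and other ligands or receptors called with an absolute log2 fold change over 1 in TDP-PBS vs ctrl-PBS. A gene that this rule names is not reported here. Cx3cl1, Cx3cr1, Cxcl13 and Plac8 were named after their values were seen. Members and lists were chosen with earlier results of these data known. Alternatives were DESeq2 1.42.0, limma-voom (limma 3.58.1), other scalings and filters, sex as a covariate, fits of 2 groups alone, and leaving out each mouse. The fits were tested on simulated data. Depth limits and the intervals of the ratios of summed counts cover counting error only. The intervals of log2 fold changes come from the edgeR fit, which includes the spread between mice.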

Additional observations from a re-analysis of the deposited data

Results flagged for a closer look

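In each group of 10 mice, the highest and the lowest mouse of every chemokine gene were compared with the rest by Dixon's ratio, the gap to the nearest mouse over the whole range, at the 95% critical value for 10 mice. Of 20 combinations of gene and group, 7 exceeded it. The nominal rate of 5% assumes normally distributed values and independent combinations. CPM was used without a log and the genes varied together, so the 7 are a description. The ctrl-PBS and TDP-15 groups were too large for this rule.

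TDP-PBS mouse 217 accounted for 4 of them, in genes whose correlations were computed with this mouse included. It was far above its group for Cxcl10 (16.1 CPM, next mouse 8.45), Ccl5 (10.1 CPM, next 6.03), Ccl2 (2.90 CPM, next 1.51) and Ccl7 (0.869 CPM or 18 counts, next 0.313). Without this mouse the log2 fold changes of TDP-PBS against ctrl-PBS were 5.45 for Cxcl10, 5.03 for Ccl5 and 3.02 for Ccl2. In the same group, mouse 26 stood apart for Cxcl9 (3.08 CPM, next 1.24) and mouse 82 for Ccl3 (3.21 CPM, next 2.19). TDP-10+12 mouse 242 was the lowest of its group for Ccl6, at 1.56 CPM against 2.84 for the next mouse. It was also the lowest of its group for Cxcl10 (1.66 CPM), Cxcl16 (3.76 CPM), Ccl3 (0.452 CPM), Ccl4 (0.0502 CPM) and Ccl5 (1.25 CPM), without passing the critical value there.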

How the results depend on the processing

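Against ctrl-PBS, the 202 log2 fold changes of single chemokine genes recomputed under other settings and the 747 recomputed without 1 mouse kept their direction and their call. The number of members called was 7 to 10 in TDP-PBS and TDP-15, and 9 whichever mouse was left out. In TDP-10+12 it was 5 when only the 2 groups compared were fitted, where fewer members passed the filter. The shares of all genes called under these settings are not given here, so these counts are a description. Between rNLS8 groups and between sexes no setting called a member. Of the log2 fold changes there, limma-voom with quality weights turned Cxcl9 in TDP-10+12 vs TDP-PBS to -0.10, Ccl6 in TDP-10+12 vs TDP-15 to 0.093 and Cxcl10 between the sexes to 0.011, and the cause was not tested. Leaving out 1 mouse changed the sign of some. In TDP-10+12 vs TDP-PBS, the ranges were -0.29 to 0.59 for Cxcl9, -0.33 to 0.037 for Ccl2, -0.35 to 0.016 for Ccl5, -0.16 to 0.073 for Ccl6 and -0.40 to 0.0029 for Ccl12. In TDP-15 vs TDP-PBS, they were -0.49 to 0.18 for Cxcl9, -0.26 to 0.35 for Cxcl10, -0.049 to 0.44 for Ccl5 and -0.26 to 0.11 for Ccl6. In TDP-10+12 vs TDP-15, they were -0.048 to 0.67 for Cxcl9 and -0.11 to 0.16 for Ccl6. Called pairs numbered 21 to 26 under other settings and 22 to 28 without 1 mouse, the 22 without TDP-15 mouse 126. The median r within TDP-10+12 went from 0.328 to -0.072 without mouse 242, a setting chosen after seeing the data, as were those without mice 217, 126 and 328 within their groups. Relations with marker lists numbered 24 to 34. Other ligands and receptors called against ctrl-PBS numbered 10 to 15. No paired analysis was possible because the labels give each mouse's number but no litter. The paper states that littermates were randomized to the immunization groups, and litter was not modelled here. Depth limits Ccl7, Ccl4 and Cxcl9, and Ccr2, Cxcr3 and Cxcr6, which lay near the 3-count floor. The ctrl-PBS medians of Cxcl10, Ccl5 and Ccl2 also lay below this floor, which limits the size of their fold changes.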
